A study of Mus musculus with 4 samples.

Results

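Mature oligodendrocyte nuclei of the mouse brain were compared between wild-type (WT) mice and mice heterozygous for a disruption of the CSF-1 receptor gene (*Csf1r*+/-, called HET here). The nuclei were picked by their transcripts. A nucleus was taken when it carried at least 3 unique molecular identifiers (UMIs, each marking 1 captured RNA molecule), making up at least 0.2% of its UMIs, over *Mog*, *Mag*, *Mobp*, *Aspa*, *St18*, *Prr5l* and *Gjc3*. It also had to have no UMI of *Pdgfra*, *Vcan* or *Enpp6*, which mark precursors and newly formed cells, and at most 2 UMIs of the neuronal genes *Snap25* and *Rbfox3*. This gave 1890 of the 52132 nuclei that passed quality filters (3.63%). The 12 genes of the rule are described below with no test.

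Oligodendrocytes wrap axons in myelin, a lipid-rich membrane stack that speeds conduction, and feed the axons they wrap. They derive from *Pdgfra*+ precursors, and as they mature they switch on the genes for myelin proteins (*Mbp*, *Mog*) and for the enzymes that make myelin lipids. They express little or no *Csf1r*, which in the brain is the receptor through which microglia receive survival signals. The heterozygous mouse is used as a model of a human leukoencephalopathy, a disease in which brain white matter degenerates.

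The samples were brains of 2-month-old female C57/BL6 mice, 2 WT and 2 HET libraries, none of them treated. The mice were asymptomatic at this age, and no conditional allele or Cre driver is named. Nuclei were isolated without detergent from perfused brain and passed over myelin depletion beads, a step that can alter how many oligodendrocyte nuclei are recovered, and RNA was counted from the 3′ end. The study looked for the primary defect of microglia in this model, before symptoms appear. Each library came from its own mouse. An exact permutation test of 2 against 2 libraries cannot go below p = 0.33.

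The WT libraries held 249 members (replicate 1) and 1062 members (replicate 2), and the HET libraries held 336 and 243. Their summed UMIs were 451615, 2061318, 735541 and 490120 in the same order, so WT replicate 2 gave more molecules than the other libraries together. The median member had 1631, 1671, 1944 and 1730 UMIs. The median number of genes detected per member was 950, 1002, 1019 and 985, and the groups overlapped. When every nucleus was thinned to 1000 UMIs, leaving out the 39, 87, 20 and 26 shallower members, the medians were 636, 665, 612 and 645 genes, again with overlapping groups. Pairs of libraries shared 35 to 75 cell barcodes, and 1 barcode, shared by WT replicate 2 and HET replicate 1, was a member in both.

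The label was checked with myelin genes that the rule did not use. *Mbp*, which compacts the myelin membrane, had a UMI in 97.4% of members and in 27.5% of the other nuclei (3601 against 90.6 CPM, the UMIs of a gene scaled to a fixed total). *Ugt8a*, which makes the galactolipids of myelin, stood at 813 against 16.5 CPM, and *Opalin*, a membrane protein of myelinating cells, at 246 against 2.17 CPM. *Sox10*, the transcription factor of the lineage, stood at 188 against 2.50 CPM. Among genes detected in 20% or more of members, those with the highest ratio to the other nuclei were the non-coding transcript *C030029H02Rik* (6.56 on the log2 scale), *Opalin* (6.28), *Aspa*, *Mog* and *Gjc3*, of which the last 3 belong to the rule. Markers of Schwann cells, the myelinating cells of peripheral nerves, were low (*Prx* had 2 UMIs and *Pmp22*, the most abundant of 7, had 83 UMIs in all members). The late precursor genes *Bmp4*, *Neu4* and *Gpr17*, which the rule did not use, had 0, 1 and 5 UMIs. They were also sparse in the other nuclei (52, 74 and 124 UMIs). Precursor genes outside the rule went both ways. *Cspg4* (5.88 against 0.860 CPM) and *Gpr17* (1.34 against 0.332 CPM) were higher in members. *Ptprz1* (47.9 against 70.9 CPM), *Tnr* (109 against 559 CPM) and *Lhfpl3* (109 against 367 CPM) were lower. The myelin gene values match the label of mature oligodendrocytes.

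At the borders of the rule, 24 members had exactly 3 marker UMIs and 118 had a marker share below 0.4%, against a median member with 16 marker UMIs and a share of 0.941%. Just outside, 22 nuclei had 2 marker UMIs and 46 had a share between 0.1% and 0.2%. Of the 3125 nuclei that met both marker limits, 797 were left out for a precursor gene, mostly for *Enpp6* (744 of the 3125 carried it), and 438 for neuronal genes alone. Nuclei with at least 3 UMIs and 0.2% of UMIs over *Pdgfra*, *Vcan* and *Enpp6*, and at most 2 neuronal UMIs, numbered 10, 35, 12 and 2 by library, too few for a comparison with the members.

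Members also carried transcripts typical of other cells, and not to the same extent in every library. Over 10 genes that neurons express broadly, the members' level relative to neuronal nuclei of the same library put the share of neuronal RNA at 21.7% and 22.4% of member UMIs in WT and at 9.24% and 15.6% in HET. The groups did not overlap. The share of members with neither a *Snap25* nor a *Rbfox3* UMI was 60.2% and 61.1% in WT and 77.1% and 71.6% in HET, a description only, since the rule capped both genes. A doublet caller placed 8.43%, 6.40%, 4.46% and 7.41% of members among the highest scoring nuclei of their library. The number of kept nuclei set the marked share in advance, at 12.9%, 12.2%, 7.67% and 8.95% of them. The members' shares can therefore not be compared between libraries. WT replicate 2 stood apart in another way, with a median mitochondrial share of 1.55% in members against 0.460%, 0.612% and 0.341% in WT replicate 1 and the HET libraries. Its ribosomal protein genes summed to 6443 CPM in members, against 3098 CPM in WT replicate 1 and 2657 and 1904 CPM in the HET libraries. Where leaving out WT replicate 2 turned a list's direction, this is said below, as are lost calls of several named genes.

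**Figure D1:**
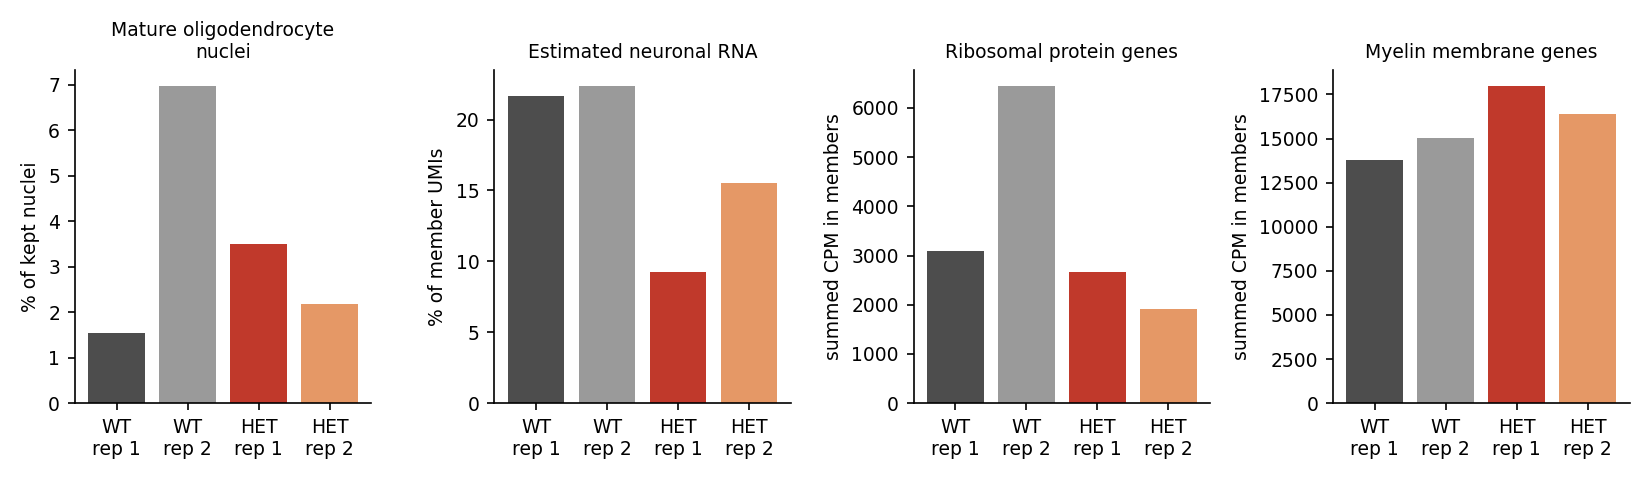
Bars show, for each of the 4 libraries, the share of kept nuclei that were mature oligodendrocyte nuclei, the estimated share of neuronal RNA in them, and the summed CPM of ribosomal protein genes and of myelin membrane genes in them. WT replicate 2 is highest in nuclei (6.97%) and in ribosomal protein genes (6443 CPM), and both HET libraries lie below both WT libraries in neuronal RNA.

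The share of nuclei that were mature oligodendrocytes did not separate the genotypes. It was 1.55% (95% exact binomial interval 1.36 to 1.75) in WT replicate 1 and 6.97% (6.57 to 7.38) in WT replicate 2. In HET it was 3.50% (3.14 to 3.89) and 2.17% (1.91 to 2.46), between the WT values. The means were 4.26% ± 3.83 (SD, n = 2) in WT and 2.84% ± 0.941 in HET, with p = 1 by a two-sided exact permutation test. The intervals cover counting error only, and the spread between the WT libraries was wider than any of them.

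*Csf1r* itself was sparse in the members. It had 68 UMIs in all (8.86 and 22.8 CPM for WT, 5.44 and 26.5 CPM for HET) and was found in 2.49% of members against 3.07% of all other nuclei, while its pooled level was 18.2 CPM in members against 5.37 CPM in the others. It did not pass the filter on low values and was not tested. In nuclei chosen by 11 other microglial genes (at least 5 UMIs and 0.5% of UMIs, no UMI of the oligodendrocyte rule), the level of *Csf1r* was 772 and 886 CPM for WT but 568 and 577 CPM for HET, lower in both HET libraries. Where the 3′ reads lie relative to the disrupted part of the allele is not given in the sources used here.

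Few genes were higher in HET oligodendrocyte nuclei and many were lower. UMIs were summed over the members of each library and tested with edgeR's quasi-likelihood method. Of 3326 genes outside the rule that were detected in 10% or more of members of either genotype, 182 (5.47%) passed the study's threshold of an unadjusted p under 0.01. Of these, 6 (0.18%) were higher and 176 (5.29%) were lower in HET, and in all 182 the WT and HET libraries did not overlap. No gene had a Benjamini-Hochberg adjusted p under 0.05 (the smallest was 0.0803), with 410 genes at an unadjusted p under 0.05. At the same adjusted threshold the likelihood-ratio test of edgeR gave 176 genes and DESeq2 gave 17. The median log2 fold change of all tested genes was 0.02. Below, a gene is said to have passed, or to be lower or higher, by the unadjusted threshold, and the p printed beside it is the adjusted one.

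The lower genes fell into groups by where they are expressed. Of the 176, 146 (83.0%) had a higher CPM in neuronal nuclei than in the members, against 1027 of the 3326 tested (30.9%). Another 19 were ribosomal protein genes. The remaining 11 included *Mt3*, *Aldoc*, *Ndrg2*, *Camk2n1*, *Cox8a*, *Ndufb9*, *Eif1*, *mt-Nd4l* and *Gm42418*, a locus that overlaps ribosomal RNA sequence and is therefore uncertain. None of the 6 higher genes was higher in neurons. Of the 431 tested genes at least 4-fold higher in members than in the other nuclei (2 on the log2 scale), 3 were higher in HET (*Sox2*, *Zdhhc9*, *Adamtsl4*) and 2 were lower (*Aldoc*, *Ndrg2*). *Adamtsl4* met the detection filter through HET alone, and *Aldoc* and *Ndrg2* met it through WT alone.

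**Figure D2:**
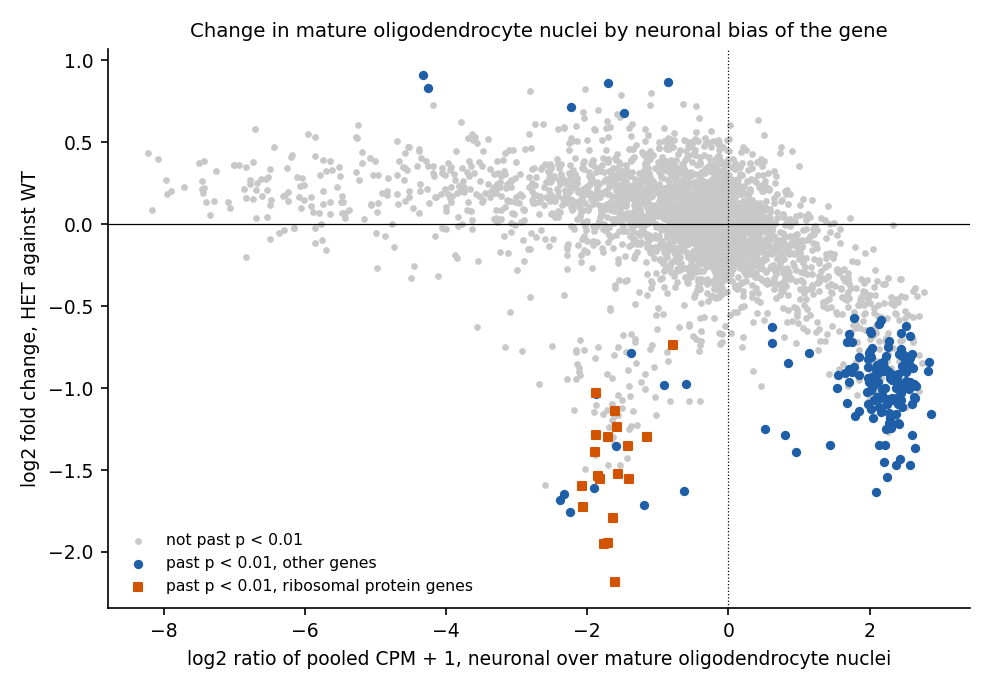
Each point is 1 of the 3326 genes tested in mature oligodendrocyte nuclei, with the log2 ratio of its pooled CPM + 1 in neuronal nuclei over members on the horizontal axis and its log2 fold change, HET against WT, on the vertical axis. Genes past p under 0.01 are drawn in blue, or in orange squares for ribosomal protein genes. The 146 lower genes with more neuronal than oligodendrocyte expression form the group at the lower right.

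The neuronal genes gave the smallest p-values. *Rgs6*, a regulator of G protein signaling, stood at 189 and 174 CPM (scaled by TMM, the default normalization of edgeR, with the UMIs of the tested genes as library totals, so that these values lie above the plain CPM used for list sums, label checks and subclusters) in WT and at 63.3 and 66.7 CPM in HET, a log2 fold change of -1.47 ± 0.20 (SE, adjusted p = 0.0803). Both HET values were far below both WT values, and the spread within each genotype was small. *Camk2a*, a kinase of excitatory synapses, stood at 114 and 150 against 48.7 and 50.1 CPM (-1.47 ± 0.25, adjusted p = 0.0803). *Nell1*, a secreted glycoprotein, stood at 149 and 125 against 45.4 and 54.8 CPM (-1.44 ± 0.24, adjusted p = 0.0803). Again no WT library reached down to a HET library. *Myt1l*, a neuronal transcription factor, *Prkg1*, the cGMP-dependent kinase, *Tenm1*, an adhesion protein, *Hs3st4*, a heparan sulfate enzyme, *C230004F18Rik* and *Ntm*, a neural adhesion protein, followed, with log2 fold changes between -1.63 (*Tenm1*) and -0.95 (*Ntm*).

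Of 21 neuronal markers, 2 belonged to the rule and 12 others passed the filter. All 12 had a lower estimate in HET and 10 passed the threshold as lower (5.29% of all tested genes did), with a median log2 fold change of -0.96. The abundant non-coding RNA *Meg3* stood at 2156 and 2032 CPM for WT against 782 and 1213 CPM for HET (-1.07 ± 0.22, adjusted p = 0.0803). The potassium channel subunit *Kcnip4* (-0.99), the splicing factor *Rbfox1* (-1.01), the adhesion protein *Cntnap2* (-1.01), the glutamate receptor subunit *Grin2b* (-0.94), the non-coding RNA *Snhg11* (-0.86), the vesicle protein *Syt1* (-0.86), the growth factor *Nrg3* (-0.80) and the RNA-binding protein *Celf4* (-0.79) also passed. In each of these the highest HET value lay below the lowest WT value. The most abundant of the list was *Kcnip4*, and the list, with the rule genes *Snap25* and *Rbfox3* included, summed in plain CPM to 11173 and 10925 CPM in WT and to 4601 and 7174 CPM in HET. In all other nuclei, most of them neuronal, the median log2 fold change of these 12 genes was 0.06, and the list summed to 50536, 45599, 48635 and 49651 CPM. The counts and medians leave out both rule genes. Of the 12 genes, 2 met the detection filter through WT alone. *Celf4* did not pass without WT replicate 2 (-0.71). The calls depended on HET replicate 1, the library with the lowest neuronal level: without it 8 of the 10 genes no longer passed (*Meg3*, *Rbfox1*, *Kcnip4*, *Syt1*, *Nrg3*, *Celf4*, *Cntnap2* and *Snhg11*), and the median was -0.71.

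The estimate of neuronal RNA is no separate measure of this result, since its 10 genes are all among the 12. The part of neuronal RNA from other cells in the result was not tested. When members with any *Snap25* or *Rbfox3* UMI were left out, 203 genes passed, 200 of them lower, 137 of them among the 182, and the median of the neuronal list was -0.83. When the estimated neuronal RNA was subtracted from each library's sums, 47 genes passed, 44 of them lower, and 44 of the 47 were among the 182. The subtraction is scaled on genes of the neuronal list and so leaves few of their counts, and the folds that remain cannot be read: they ran from -8.43 (*Meg3*) to 6.78 (*Hs3st4*), and *Rgs6* gave no value. Single libraries also decided the number of genes past the threshold: it was 284 without WT replicate 1, 233 (58 higher and 175 lower) without WT replicate 2, 64 without HET replicate 1 and 174 without HET replicate 2.

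Ribosomal protein genes, whose products form the ribosome, gave 19 genes lower in HET. Of 84 in the list 52 passed the filter, but 46 of these did so through WT alone, against 285 of all 3326 tested genes, so the filter itself favoured a lower estimate in HET. All 52 had a lower estimate in HET and 19 passed the threshold as lower (5.29% of all tested genes did), with a median of -1.17. Without the filter on detection, 81 were tested, 39 passed and the median was -1.05. In 34 of the 52 the libraries did not overlap, against 714 of 3326 tested genes (21.5%) that were lower without overlap. *Rpl41* stood at 87.8 and 124 CPM for WT against 38.9 and 35.8 CPM for HET (-1.56 ± 0.28, adjusted p = 0.0803). *Rpl38* stood at 71.9 and 122 against 32.4 and 9.54 CPM (-2.19 ± 0.45, adjusted p = 0.0803), and *Rps29* at 101 and 233 against 68.1 and 38.1 CPM (-1.73 ± 0.39, adjusted p = 0.0803). In all 52 genes WT replicate 2 was the highest library. *Rplp1*, the most abundant of the list by UMIs, stood at 93.2 and 274 against 90.8 and 35.8 CPM (-1.60 ± 0.49, adjusted p = 0.171), where WT replicate 1 and HET replicate 1 nearly coincide. *Rpl37* stood at 63.9 and 121 against 43.8 and 38.1 CPM (-1.29 ± 0.34, adjusted p = 0.117).

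The ribosomal result depended on single libraries. Without WT replicate 2, 12 ribosomal protein genes passed the filter, with a median of -0.63. Without WT replicate 1 the median was -1.498 over 55 genes, and without HET replicate 2 it was -0.96 over 52. *Rpl41* (-1.21) and *Rpl38* (-1.64) still passed without WT replicate 2, while *Rps24* (-1.13), *Rps29* (-0.86) and *Rplp1* (-0.47) did not. The other nuclei showed the same direction, with a median of -0.76 over the 52 genes, and their ribosomal protein genes summed to 1652, 3175, 1579 and 1319 CPM, again highest in WT replicate 2. Several ribosomal protein genes have near-identical pseudogenes, so that their counts are uncertain to that extent.

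Genes of astrocytes made up a smaller group. Of 15 astrocyte markers 6 passed the filter, and 4 of these were past the threshold, all lower (5.29% of all tested genes were), with a median of -1.32. *Slc1a2*, the glial glutamate transporter, stood at 232 and 370 against 118 and 138 CPM (-1.28 ± 0.25, adjusted p = 0.0803). *Aldoc*, a glycolytic enzyme, stood at 53.2 and 146 against 32.4 and 38.1 CPM (-1.68 ± 0.44, adjusted p = 0.115), and the bicarbonate transporter *Slc4a4* fell too (-1.35 ± 0.31, adjusted p = 0.0842). *Slc1a2* and *Slc4a4* both had a higher CPM in neuronal nuclei than in members. Of the 6 tested markers, 3 met the detection filter through WT alone. *Apoe*, the lipid carrier of glia, stood at 298, 704, 354 and 260 CPM, so the genotypes overlapped (-0.75 ± 0.34, adjusted p = 0.432), and *Slc1a3* at 154, 138, 152 and 157 CPM. The defining astrocyte markers *Aqp4*, *Gfap* and *Gja1* had 26, 19 and 26 UMIs in all 1890 members, of which 21, 14 and 24 were in WT replicate 2 and 4, 2 and 1 in the HET libraries together. In plain CPM the list summed to 786 and 1495 CPM in WT and to 649 and 645 CPM in HET, led by *Apoe*. Without WT replicate 2 the median of the list was 0.01. The part of astrocyte RNA in the result was not tested.

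Metallothioneins are small cysteine-rich proteins that bind zinc and copper, and *Mt3* is the brain form. *Mt3* stood at 71.9 and 134 CPM for WT against 40.5 and 31.0 CPM for HET members (-1.61 ± 0.35, adjusted p = 0.0803). *Mt1* stood at 45.2 and 190 against 51.9 and 35.8 CPM (-1.59 ± 0.53, adjusted p = 0.22) and did not pass, and WT replicate 1 lay between the HET libraries. It passed in 8 alternatives, among them the likelihood-ratio test (-1.46) and the fit without WT replicate 1 (-2.07). *Mt2* had 53 UMIs, 47 of them in WT replicate 2, and was not tested. These are neighbouring genes on chromosome 8 (mm10, *Mt3* at 94152607 to 94154146 and *Mt1* at 94179082 to 94180327, both on the forward strand). Without WT replicate 2, *Mt3* had a log2 fold change of -0.97 and did not pass. It did not pass without HET replicate 2 either (-1.45). In the other nuclei *Mt3* stood at 25.8, 56.1, 18.9 and 16.3 CPM (-1.22) and *Mt1* at 21.0, 61.6, 13.3 and 10.0 CPM (-1.82). Of the 31 genes of the metallothionein, zinc and copper list, 5 passed the filter, and *Mt3* alone passed the test (5.29% of all tested genes were lower). *Mt3* met the filter through WT alone, with a UMI in 17.6% of WT and 5.70% of HET members. *Slc30a9*, a zinc transporter, stood at 87.8, 102, 82.7 and 85.8 CPM.

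Of 13 genes encoded by the mitochondrial genome 11 passed the filter. *mt-Nd4l* did so through WT alone, with a UMI in 15.6% of WT and 8.46% of HET members. All 11 had a lower estimate in HET (median -0.88), and *mt-Nd4l*, a subunit of complex I, was the 1 that passed, a share near the 5.29% of all tested genes that were lower (117 and 110 against 71.4 and 33.4 CPM, -1.04 ± 0.31, adjusted p = 0.169). *mt-Co3* stood at 1429 and 3730 CPM for WT against 2021 and 1156 CPM for HET, *mt-Atp6* at 1126, 3458, 1700 and 985 CPM, and *mt-Co2* at 964, 2446, 1249 and 582 CPM. In these 3 genes the genotypes overlapped and WT replicate 2 was highest. Without it the median of the list was -0.03.

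**Figure D3:**
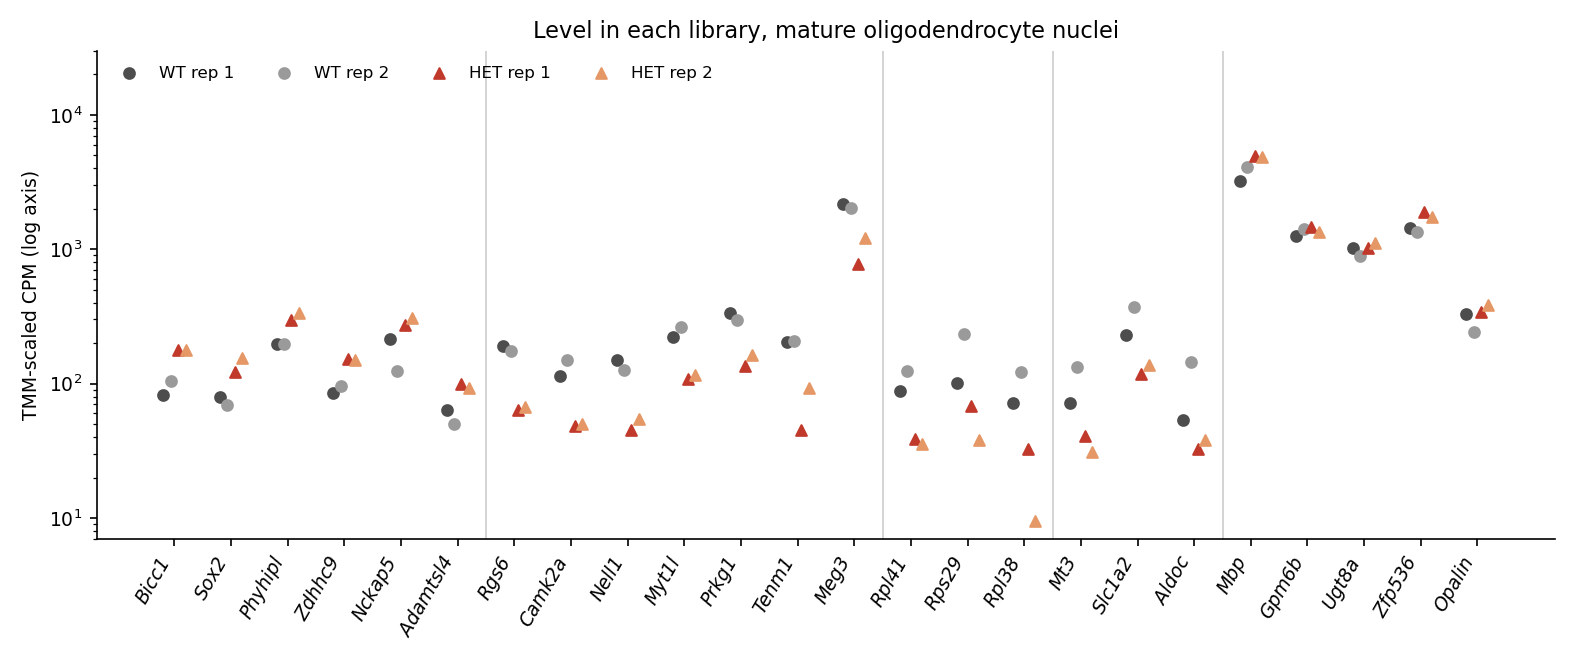
Points give the TMM-scaled CPM (log axis) of 24 genes in mature oligodendrocyte nuclei, circles for the 2 WT and triangles for the 2 HET libraries, in blocks of genes higher in HET, neuronal genes, ribosomal protein genes, *Mt3* with 2 astrocyte genes, and genes of myelin and the lineage. In the first 4 blocks the genotypes do not overlap, whereas in *Gpm6b* they do.

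The 6 genes higher in HET had modest folds and low to moderate levels. *Bicc1*, an RNA-binding protein (chromosome 10, 70922832 to 71159700, reverse strand), stood at 82.5 and 104 CPM for WT against 177 and 176 CPM for HET (0.87 ± 0.19, adjusted p = 0.0803). *Sox2*, a transcription factor of neural stem cells and glia (chromosome 3, 34650405 to 34652461, forward strand), stood at 79.9 and 69.2 against 122 and 155 CPM (0.91 ± 0.22, adjusted p = 0.101). *Phyhipl* (chromosome 10, 70557682 to 70655965, reverse strand) stood at 197 and 196 against 297 and 334 CPM (0.68 ± 0.17, adjusted p = 0.101). *Sox2* lies within the non-coding transcript *Sox2ot*, so its count is uncertain to that extent. In all 3 the WT pair lay close together and well below the HET pair. *Zdhhc9*, an enzyme that attaches palmitate to proteins (chromosome X, 48171969 to 48208878, reverse strand), stood at 85.2 and 95.5 against 152 and 150 CPM (0.72 ± 0.19, adjusted p = 0.117). *Nckap5* (chromosome 1, 125913620 to 126830799, reverse strand) stood at 216 and 124 against 271 and 310 CPM (0.86 ± 0.26, adjusted p = 0.169), and *Adamtsl4*, a secreted matrix protein (chromosome 3, 95676201 to 95687917, reverse strand), at 63.9 and 49.8 against 98.9 and 93.0 CPM (0.83 ± 0.25, adjusted p = 0.171). Their adjusted p-values lay between 0.0803 and 0.171.

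The calls of these genes depended on the settings. All 6 genes were higher in HET under all 18 alternatives. In each of them both HET libraries lay above both WT libraries, so leaving out 1 library could not turn the direction. The alternatives use the same libraries and are no separate support for it. *Bicc1* passed the threshold in 16 of the 18, *Phyhipl* in 15, *Sox2* in 13, *Zdhhc9* and *Nckap5* in 12 each, and *Adamtsl4* in 6. The fold of *Nckap5* was 0.43, with no call, without WT replicate 2, and WT replicate 1 lay nearer to HET replicate 1 than to the other WT library. *Sox2* (0.78) and *Adamtsl4* (0.60) also lost the call without WT replicate 2. DESeq2 called no gene higher. In the other nuclei the log2 fold changes were between -0.60 (*Sox2*) and 0.17 (*Bicc1*), and none passed the threshold.

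Genes that make up myelin did not pass the test with all libraries. Of 25 genes of the myelin membrane list 3 belonged to the rule and 19 others passed the filter. None of the 19 was past the threshold, and 17 had a higher estimate in HET, with a median of 0.23. *Mbp* stood at 3237 and 4084 CPM for WT against 4963 and 4877 CPM for HET (0.42 ± 0.18, adjusted p = 0.368). *Gpm6b*, a membrane proteolipid, stood at 1251, 1412, 1458 and 1335 CPM (0.07 ± 0.17, adjusted p = 0.931). *Mbp* separated the genotypes and *Gpm6b* did not, and in all 9 genes of the list were higher without overlap, while 662 of all 3326 genes (19.9%) were higher without overlap. Of 34 genes of myelin lipid synthesis 17 passed the filter, none passed the test and 16 had a higher estimate (median 0.17). *Qk*, an RNA-binding protein that processes myelin transcripts, stood at 4890 and 4214 against 5620 and 5433 CPM (0.28 ± 0.17, adjusted p = 0.62). *Ugt8a* stood at 1017, 894, 1025 and 1106 CPM (0.16 ± 0.17, adjusted p = 0.807), and the desaturase *Scd2* at 671, 688, 824 and 694 CPM (0.16 ± 0.17, adjusted p = 0.807).

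After subtraction of neuronal RNA the median of the myelin membrane list was 0.06 and that of lipid synthesis 0.07, whereas among members without *Snap25* and *Rbfox3* they were 0.22 and 0.23. With 1 library left out the median of the myelin membrane list lay between 0.09 (without HET replicate 1) and 0.31 (without HET replicate 2), and *Mbp* passed as higher without WT replicate 2 (0.61).

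Transcription factors of the lineage did not pass the test either. Of 18 listed 1 belonged to the rule and 10 others passed the filter, none passed the test and 8 had a higher estimate (median 0.19). *Zfp536* stood at 1429 and 1349 against 1893 and 1726 CPM (0.38 ± 0.17, adjusted p = 0.394), *Tcf12* at 1288, 1263, 1601 and 1356 CPM and *Zeb2*, which drives myelination, at 2569, 2253, 2538 and 2870 CPM. Of 16 genes for junctions, channels and transport 7 passed the filter and none passed the test (median 0.15), with the choline transporter *Slc44a1* at 575 and 553 against 746 and 682 CPM (0.34 ± 0.16, adjusted p = 0.466), the chloride transporter *Slc12a2* at 812, 762, 916 and 822 CPM and the potassium channel *Kcna1* at 322, 336, 380 and 386 CPM.

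Of 31 receptors through which oligodendrocytes could receive signals from neurons or microglia, 20 passed the filter and 2 passed the test, both lower, too few to set the list apart from all tested genes (5.29% lower). These were the neurotrophin receptors *Ntrk3* (189 and 193 against 77.9 and 110 CPM, -1.06 ± 0.21, adjusted p = 0.0803) and *Ntrk2* (194 and 267 against 89.2 and 160 CPM, -0.97 ± 0.28, adjusted p = 0.155), and both had a higher CPM in neuronal nuclei than in members. *Ntrk2* lost its call with DESeq2 (-0.93), without WT replicate 2 (-0.68) and without HET replicate 1 (-0.60), among other alternatives. *Ntrk3* lost its call without HET replicate 1 (-0.83) and with *Snap25* and *Rbfox3* at 0 (-0.58), among others. The 3 receptors with the most UMIs did not pass. The neuregulin receptor *Erbb4* stood at 3101, 2881, 3213 and 3313 CPM (0.13 ± 0.16), the fibroblast growth factor receptor *Fgfr2* at 1395, 1439, 1473 and 1685 CPM (0.15 ± 0.17), and the interleukin-1 receptor subunit *Il1rap* at 578, 591, 706 and 620 CPM (0.18 ± 0.17).

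Lists for stress and damage gave no gene past the test, and few of their members were measured. Calls appeared in some alternatives: *Sgk1* was higher without WT replicate 2 (1.16), *Fth1* was lower without WT replicate 1 (-0.73), and *Hspa8* was lower without WT replicate 1 (-1.33), with doublets removed (-1.12) and with *Snap25* and *Rbfox3* at 0 (-1.04). Without WT replicate 2 the medians of the stress response, cell death and heat shock lists were -0.01, 0.45 and 0.01. Of 20 iron genes 5 passed the filter (median 0.04): the iron store *Fth1* stood at 708 and 967 against 675 and 484 CPM (-0.54 ± 0.22, adjusted p = 0.351), transferrin (*Trf*) at 293, 288, 402 and 255 CPM and the iron chaperone *Pcbp2* at 146, 205, 157 and 222 CPM. Of 41 genes of the integrated stress and unfolded protein responses 12 passed (median -0.15), with the sensor *Atf6* at 133, 130, 127 and 138 CPM and the chaperones *Hsp90b1* at 90.5, 135, 118 and 100 CPM and *Canx* at 104 and 140 against 89.2 and 90.6 CPM (-0.50 ± 0.22, adjusted p = 0.408). Of 35 cell death genes 5 passed (median 0.10), with *Bcl2l1*, which blocks apoptosis, at 189, 334, 365 and 222 CPM, *Mdm2* at 106, 85.8, 110 and 85.8 CPM and *Xiap* at 117, 101, 107 and 83.4 CPM. Of 24 genes of oxidative defence 1 passed the filter, the peroxiredoxin *Prdx1* at 101, 121, 92.4 and 131 CPM. Of 26 immune and interferon genes 3 passed (median 0.11), namely *Il33*, *Sgk1* and *Sgk3*. *Sgk1*, a kinase induced by glucocorticoids, spanned 52.4 to 183 CPM and differed more within each genotype than between them. Of 20 immediate early and heat shock genes 5 passed the filter (median -0.23), led by *Hsp90ab1* (210, 226, 240 and 155 CPM), *Hsp90aa1* (165, 195, 170 and 160 CPM) and *Hspa8* (61.2 and 140 against 63.3 and 45.3 CPM).

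Among markers of other cells, no gene of the 12 microglial, 9 endothelial, 8 mural or 7 Schwann cell markers passed the filter. The microglial list summed to 199, 353, 252 and 384 CPM, the endothelial list to 64.2, 107, 62.5 and 51.0 CPM, led by *Bsg*, the mural list to 11.1, 15.52, 2.72 and 4.08 CPM, led by *Rgs5*, and the Schwann cell list to 33.2, 37.4, 20.4 and 26.5 CPM, led by *Pmp22*. Of 12 precursor markers 2 outside the rule passed the filter, *Lhfpl3* through WT alone (a UMI in 15.3% of WT and 9.15% of HET members). *Lhfpl3* was lower (149 and 155 against 66.5 and 93.0 CPM, -0.97 ± 0.22, adjusted p = 0.0803) and was also higher in neuronal nuclei than in members. Without HET replicate 1 it had no call (-0.75). *Tnr* stood at 114, 155, 48.7 and 155 CPM.

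**Figure D4:**
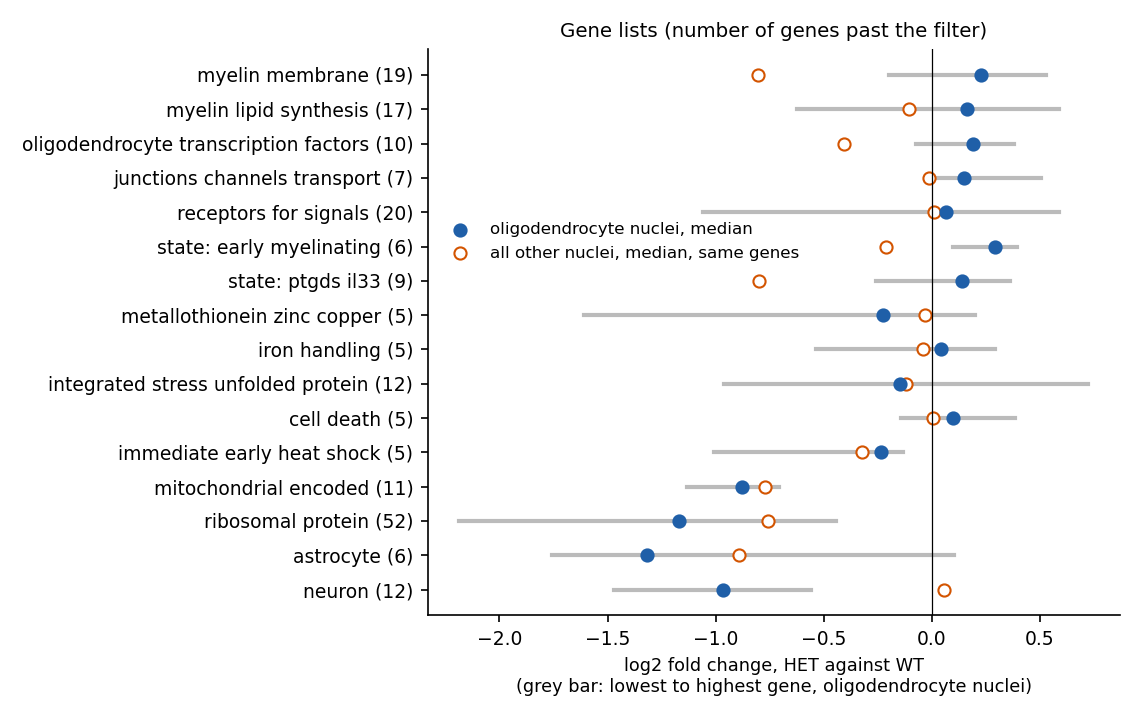
For 16 gene lists, filled points give the median log2 fold change, HET against WT, in mature oligodendrocyte nuclei, open points the median of the same genes in all other nuclei, and grey bars the range from the lowest to the highest gene in the oligodendrocyte nuclei. The neuronal list lies at -0.96 in oligodendrocyte nuclei and at 0.06 in the others, while the ribosomal (-1.17 and -0.76) and mitochondrial (-0.88 and -0.77) lists lie below 0 in both.

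The HET against WT change was also tested for a difference between members and the 50242 other nuclei of the same libraries. The other nuclei still held the nuclei that met both marker limits but were left out. These were 797 with a precursor gene and 438 with neuronal genes alone, of which 400 and 272 were in WT replicate 2. Their part in the differences was not tested. Of 3326 genes 212 (6.37%) passed p under 0.01, 188 with a lower (5.65%) and 24 with a higher change (0.722%) in members. None passed after adjustment (smallest adjusted p = 0.0614, 465 genes at p under 0.05), against 162 with the likelihood-ratio test. Of the 188, 183 had a higher CPM in neuronal nuclei than in members. Among the 176 genes lower in HET members, the difference passed for 134 of the 146 neuronal genes, for 1 of the 19 ribosomal protein genes (*Rps24*) and for 1 of the 11 others (*Camk2n1*). In the other nuclei alone, 4 of the 3326 genes were lower (0.12%) and 2 were higher (0.0601%) past the threshold.

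The smallest p-values again belonged to neuronal genes. *Rgs6* stood at 838, 806, 862 and 982 CPM in the other nuclei (0.17) and differed by -1.65 ± 0.18 (adjusted p = 0.0614). *Rgs7*, a relative of *Rgs6*, stood at 279 and 237 against 98.9 and 143 CPM in members, and its change differed by -1.33 ± 0.19 (adjusted p = 0.0614) from the 0.19 of the other nuclei. Of the 6 genes higher in HET, 3 had a change that differed from that of the other nuclei, *Nckap5* (1.24 ± 0.21, adjusted p = 0.0632), *Phyhipl* (0.64 ± 0.16, adjusted p = 0.113) and *Bicc1* (0.68 ± 0.18, adjusted p = 0.14). *Nckap5* stood at 78.8 and 68.4 CPM in the WT and at 56.9 and 55.6 CPM in the HET libraries of the other nuclei, the opposite direction to the members. *Zfp536* also differed (0.82 ± 0.19, adjusted p = 0.0979), with 107, 140, 98.4 and 82.5 CPM in the other nuclei, where WT replicate 2, the library with the most oligodendrocytes, was highest.

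Members were divided into 5 subclusters by expression, without the genes that passed the genotype test. Subcluster 1 (618 nuclei) was led by *Tspan9*, *Crybg3*, *Cyp27a1*, *Anln* and *Agmo*, and *Apod*, *Hapln2* and *Selenop* were highest there (683, 366 and 162 CPM). Subcluster 2 (617 nuclei) was led by *5033421B08Rik*, *Gm42756*, *Il33*, *Ptgds* and *Pvt1*, with *Ptgds*, which makes prostaglandin D2, at 2541 CPM against 303 CPM in subcluster 1. Subcluster 3 (471 nuclei) was led by *Nckap5*, *Synpr*, *Man1a*, *Fbn2* and *Fam214a*. Of the listed genes of early myelination, *Opalin* (458 CPM), *Nfasc* (1227 CPM), *Ctps* and *Sirt2* were highest there. Others of that list were highest elsewhere: *Bcas1* in subcluster 2 (763 against 650 CPM in subcluster 3) and *Fyn* in subcluster 4. *Itpr2* (210 against 36.7 CPM in subcluster 3), *Tcf7l2* and *Tmem2* were highest in subcluster 5. Subcluster 4 (127 nuclei) was led by neuronal genes, had a median of 3541 UMIs and 74.8% of nuclei among the highest doublet scores. Subcluster 5 (57 nuclei) was led by the microglial genes *Arhgap45*, *Dock8*, *Ly86*, *Fcrls* and *Inpp5d*. These genes are given as a description. *Nckap5*, which passed the genotype test, was not used to form the groups.

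Each library was centred before clustering, which draws the libraries' shares together, so that close shares are no result. Without centring there were 6 subclusters, and the largest difference in a share was -18.2 percentage points. With centring, subcluster 1 made up 34.1% and 32.2% of WT and 33.3% and 32.5% of HET members, and subcluster 2 made up 32.1%, 32.9%, 33.0% and 31.7%. Subcluster 3 made up 24.9% and 23.5% in WT and 27.4% and 27.6% in HET, a difference of 3.26 percentage points without overlap (p = 0.33 by an exact permutation test, two-sided, the smallest the design allows). Subcluster 4 was the smaller in HET, at 6.83% and 7.91% against 4.17% and 4.94%, and subcluster 5 was at 2.01%, 3.48%, 2.08% and 3.29%. Without subclusters 4 and 5, 181 genes passed the genotype test, 175 of them lower, and 141 of these 181 were among the 182.

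Of the subcluster leaders *Nckap5* passed the genotype test, and the listed state genes, which do not include it, held none that did. Of 10 genes of early myelination 6 passed the filter, all with a higher estimate in HET (median 0.29), with *Opalin* at 327 and 241 against 342 and 386 CPM (0.39 ± 0.19, adjusted p = 0.501), *Nfasc* at 772 and 781 against 952 and 1092 CPM (0.39 ± 0.17, adjusted p = 0.382) and *Bcas1* at 703, 654, 780 and 756 CPM. Of 10 genes of the *Ptgds* and *Il33* state 9 passed the filter (median 0.14), with *Ptgds* at 1432, 1391, 2160 and 1466 CPM, the glutamate receptor *Grm3* at 1501, 1515, 1852 and 1445 CPM and the protocadherin *Pcdh9* at 24972, 21841, 23764 and 27524 CPM. *Il33*, an alarmin, stood at 234, 194, 260 and 226 CPM. Of 6 genes of the *Klk6* state 2 passed (median -0.15, and 0.22 without WT replicate 2), *Hapln2*, a matrix protein of nodes, at 157, 257, 281 and 191 CPM, and *S100b*, a calcium-binding protein, at 74.5, 98.4, 60.01 and 73.9 CPM.

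The 6 genes higher in HET were followed into the 3 largest subclusters, as unscaled CPM. *Sox2* was higher in both HET than in both WT libraries in all 3, at 71.0 and 54.9 against 80.8 and 99.9 CPM in subcluster 1, 54.2 and 81.7 against 155 and 167 CPM in subcluster 2, and 90.5 and 58.9 against 93.0 and 189 CPM in subcluster 3. *Phyhipl*, *Zdhhc9*, *Bicc1* and *Adamtsl4* also had both HET above both WT libraries in each. *Nckap5* was concentrated in subcluster 3, at 553 and 290 CPM for WT against 545 and 757 CPM for HET, where the genotypes overlapped, and it was no higher in HET in subcluster 1 (71.0 and 38.8 against 46.8 and 19.98 CPM). In subcluster 2 it stood at 62.0 and 38.2 against 125 and 92.1 CPM. These values rest on 3 to 140 UMIs a library and were not tested. The genes were chosen by their change in these same nuclei, so the subclusters give no separate support for the direction.

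**Figure D5:**
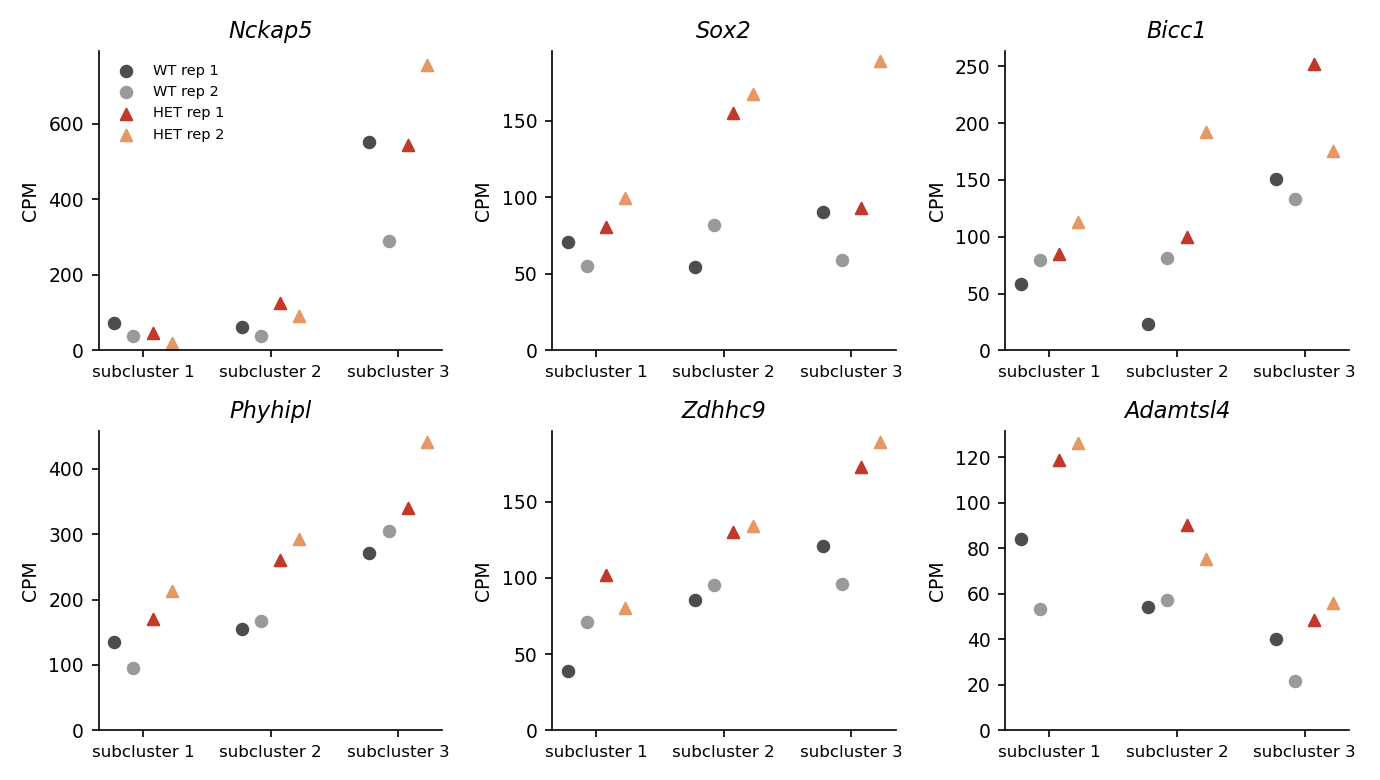
Points give the CPM of the 6 genes higher in HET within the 3 largest subclusters, circles for WT and triangles for HET libraries. *Nckap5* is highest in subcluster 3 (up to 757 CPM), and *Sox2* lies higher in both HET libraries in each subcluster.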

How the data were processed

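Single-nucleus RNA-seq of 2 WT and 2 HET brains was analysed. The paper describes a further mouse per genotype, which was not analysed here. The authors aligned reads to mm10 and counted UMIs with Cell Ranger, and the deposited values are raw UMI counts per gene and nucleus (31053 gene rows). Nuclei with 500 to 50000 UMIs, over 200 genes and under 5% mitochondrial UMIs were kept here. The members, gene lists and tests were chosen with earlier results of these data known. UMIs of members were summed per library, and genes with at least 10 counts and a UMI in at least 10% of members of either genotype were tested with edgeR 4.0.16 (TMM, quasi-likelihood), at the study's unadjusted p of 0.01 and, second, a Benjamini-Hochberg adjusted p of 0.05. The 12 genes of the rule were left out of all counts.

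The difference between members and other nuclei was fitted to both sums of each library. DESeq2 1.42.0, edgeR's likelihood-ratio test (the study's method), other scalings, filters, marker rules and left-out libraries were alternatives. Neuronal RNA was estimated as the median ratio of 10 pan-neuronal genes. Doublets were scored with Scrublet, marking 0.8% of nuclei per 1000 nuclei, and were kept in the main results. Subclusters used scanpy 1.11.5 (15 principal components, resolution 0.5), each library centred, without genes that passed the genotype test. In data simulated for the comparison of members (3334 genes, 200 changed), the quasi-likelihood test recovered 98% of genes changed by 1.5 and 92% of those changed by 1 on the log2 scale. Same-numbered WT and HET libraries did not deviate together (r = -0.105), so the numbers were not treated as pairs. Named genes were the 10 with the smallest p in each direction, the genes of each list past the threshold with its 3 most abundant tested genes, the 5 with the smallest p for the difference, genes the study names, and leading genes of the members and subclusters, and *Ndrg2*, *Cox8a*, *Camk2n1*, *Ndufb9*, *Eif1* and *Gm42418* were named after their values were seen. Intervals cover counting error only. Positions are from GENCODE M21. Some genes that met the naming rule are not reported here.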

Additional observations from a re-analysis of the deposited data

Results flagged for a closer look

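The change between HET and WT differed between mature oligodendrocyte nuclei and all other nuclei of the same libraries for 212 genes at an unadjusted p under 0.01, by edgeR's quasi-likelihood test of the difference itself, and for none after adjustment. The 5 with the smallest p were all lower in HET oligodendrocyte nuclei relative to the change in the other nuclei. On the log2 scale *Rgs6* differed by -1.65, *C230004F18Rik* by -1.22, *Camk2a* by -1.68, *Nell1* by -1.55 and *Rgs7* by -1.33. In each of them both HET libraries lay below both WT libraries in oligodendrocyte nuclei. *Rgs6*, *Camk2a* and *Nell1* met the detection filter through WT alone.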

How the results depend on the processing

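The number of genes past p under 0.01 (182) was 116 with DESeq2, 352 without the detection filter, 47 after subtraction of neuronal RNA, and 64 to 284 with 1 library left out. No gene passed the adjusted threshold in the reported fit, against 176 with the likelihood-ratio test, 17 with DESeq2, 1 without the detection filter, 112 with at least 1000 UMIs, 110 with *Snap25* and *Rbfox3* at 0, 117 with precursor genes allowed, and 0 to 204 with 1 library left out. The replicate block gave 194 genes (83 adjusted) and the crossed block 333 (269 adjusted). The libraries share only a number: same-numbered libraries correlated at -0.105 and crossed ones at 0.105. Genes with a different change in other nuclei numbered 437 without the filter and 64 to 248 with 1 library left out. Allowing precursor genes, leaving out subclusters 4 and 5 and the crossed block were chosen after seeing the data.

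The difference in the share of oligodendrocyte nuclei (-1.42 percentage points) ranged from -4.13 to 1.29 with 1 library left out, 1.29 being without WT replicate 2. Thinning turned the difference in genes per nucleus from 25.8 to -21.8, and it ranged from -0.25 (without WT replicate 1) to 51.8 with 1 library left out. The largest difference in a subcluster's share (3.26, subcluster 3) was -18.2 without centring of libraries, which gave 6 subclusters, and -3.20 to 3.94 with 1 library left out (-3.20 without HET replicate 2). For single named genes 1448 values kept direction and side of the threshold, 112 lost the call, 28 gained it, and *Hs3st4* reversed after subtraction of neuronal RNA (6.78). The causes were not tested. The comparison with precursors was not run, since libraries held 2 to 35 such nuclei. Most genes of the stress, death and immune lists were detected in too few nuclei to be tested.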
